A study of Mus musculus with 10 samples.

Results

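The antigen presentation genes are 10 genes chosen by symbol: B2m, H2.K1, H2.D1, Tap1, Psmb8, Psmb9, Cd74, H2.Aa, H2.Ab1 and H2.Eb1, where a point stands for the hyphen of the usual mouse symbol. All 10 are in the adult table, among 15989 listed genes, and 3 of the 10 (B2m, H2.D1 and Tap1) are in the embryonic table, among 15498 listed genes. No value of these samples entered the rule, but the genes were proposed with earlier results of these data known. In the adult apex, the classical class I heavy chain gene H2.K1 was the only member that passed the test, and it was lower in the knockout. Its relatives H2.Q6 and H2.Q7 were lower too, while 10 of 35 interferon-induced genes outside antigen presentation were higher in the same hearts. Of all adult genes tested, 2.34% were called higher. The calls of H2.K1, H2.Q6, H2.Q7 and the interferon-induced genes depend on how the spread is estimated, as given beside them. In the embryonic heart none of the 3 listed members passed the test.

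RNA sequencing of mouse hearts was deposited for 10 C57BL/6 samples in 4 groups. Whole embryonic hearts at day E15.5 came from 3 Larp7+/+ and 3 Larp7-/- samples, the conventional knockout. Heart apex at 4 months of age came from 2 control samples (CTR) and 2 knockout samples (mCKO, Myh6Cre;Larp7f/f). Both adult groups carry the floxed Larp7 alleles, and the labels give no Cre in the controls. Myh6 drives Cre in heart muscle cells, so by this design the other cells of the apex keep Larp7. Larp7 encodes a protein that binds and stabilises 7SK RNA, which holds the elongation kinase P-TEFb in an inactive complex. The sources do not say that replicates came from separate animals, so the p-values speak for these samples only. In the adult they rest mostly on a spread pooled over genes, not on each gene's own spread between samples.

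Class I molecules sit on nearly all nucleated cells and show peptides from the cell's own proteins to CD8 T cells. Each pairs a heavy chain (H2.K1 and H2.D1 are the classical ones in this strain) with the light chain beta-2-microglobulin, encoded by B2m. The peptides are cut by proteasomes, in which the interferon-induced subunits Psmb8 and Psmb9 can replace standard ones, and are pumped into the endoplasmic reticulum by a transporter of which Tap1 is one chain. Class II molecules show peptides from engulfed material to CD4 T cells and are made mainly by macrophages, dendritic cells and B cells. H2.Aa is an alpha chain, H2.Ab1 and H2.Eb1 are beta chains, and Cd74 encodes the invariant chain that fills the groove until the peptide is loaded.

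The values are per-million values that the authors rounded to whole numbers. Sample totals lie between 998498 and 1001508, so the sequencing depth is unknown. For each gene, the control and knockout values that carry the same replicate number add to nearly the same total, within 2 units for 8328 of 8366 E15.5 genes (99.5%) and 8640 of 8656 adult genes (99.8%) with a mean of at least 10. All 3 embryonic and all 10 adult members show it. The SD of one group therefore mirrors that of the other, and the replicate number was kept as a block in the limma fit on log2(value + 1). At an adjusted p under 0.05, 72 genes were called higher and 14 lower in the E15.5 knockout (13609 tested), which is 0.529% and 0.103%. In the adult knockout 347 were called higher and 141 lower (14833 tested). Median-of-ratios scaling gave 12 higher and 7 lower calls in the embryo, and 286 higher and 210 lower in the adult. Over all tested genes the log2 changes had a median of 0.11 (E15.5) and 0.08 (adult), which that scaling moved to 0.04 and 0.02. In the adult fit the error of most genes comes wholly from the spread pooled over genes. Larp7 itself was listed at 96, 88 and 103 in the E15.5 controls and 45, 54 and 40 in the knockouts (log2 change -1.04, SE 0.17, adjusted p = 0.00159, limma). It was lower in all 3 libraries labelled Larp7-/- but not near 0 in any, and the sources used here do not say which stretch of the gene was removed. In the adult apex it was listed at 26 and 28 in the controls and 26 and 24 in the knockouts (log2 change -0.11, SE 0.17, adjusted p = 0.933, limma), so in the adult this gene does not check the genotype labels.

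Of the 10 members, 9 lie in GRCm38 on chromosomes 2 and 17, 8 of them in the major histocompatibility complex of chromosome 17. B2m spans chr2:122147686-122153083 on the plus strand, and its whole length overlaps Patl2 on the opposite strand, which is in neither table. On chromosome 17, H2.K1 (33996017 to 34000347, minus strand) comes first and H2.D1 (35262730 to 35267499, plus strand) last. Between them lie Psmb9 (34181987 to 34187764), Tap1 (34187553 to 34197225) and Psmb8 (34197721 to 34201454), followed by H2.Ab1 (34257689 to 34269419), H2.Aa (34282744 to 34287823) and H2.Eb1 (34305867 to 34316674). Psmb9 and Tap1 run in opposite directions and overlap by 212 bases at their starts. Psmb8 overlaps Gm20496 by 2139 bases and H2.Eb1 overlaps Gm20513 by 2204 bases, both on opposite strands. The sources used here do not give whether the counting used strand, so reads from such stretches cannot be told apart. Of the 50-base words in its transcripts, H2.K1 shares 6.87% with other genes, H2.D1 13.9%, H2.Q6 32% and H2.Q7 34.9%, so reads of class I heavy chains can be split between copies and their values are uncertain. B2m, Psmb8, Psmb9 and the class II members share 0% of such words.

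Promoters of 8 of the 10 members were matched in RefSeq (GRCm38.p6), and 4 are shown because they stand for the light chain, both classical heavy chains and a class II chain. Each run is the 250 bases before the RefSeq start, read 5′ to 3′ on the gene's own strand, with matches to the 4 motifs searched in capitals. The motifs, searched on both strands, were the interferon-stimulated response element core (GAAA, any 2 bases, GAAA), TTCNNNGAA (a STAT site core), TGACG (the core of the X2 box) and CCAAT (the Y box, which reads ATTGG on the other strand). The H2.D1 window starts inside the GENCODE gene, because its RefSeq start lies further downstream. The windows are chr2:122147437-122147686 (plus) for B2m, chr17:34000348-34000597 (minus) for H2.K1, chr17:35262844-35263093 (plus) for H2.D1 and chr17:34287824-34288073 (minus) for H2.Aa.
B2m: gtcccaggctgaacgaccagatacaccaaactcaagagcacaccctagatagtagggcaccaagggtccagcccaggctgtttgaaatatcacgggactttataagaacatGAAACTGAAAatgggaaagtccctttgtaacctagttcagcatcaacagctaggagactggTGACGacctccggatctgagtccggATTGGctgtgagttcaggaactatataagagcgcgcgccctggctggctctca
H2.K1: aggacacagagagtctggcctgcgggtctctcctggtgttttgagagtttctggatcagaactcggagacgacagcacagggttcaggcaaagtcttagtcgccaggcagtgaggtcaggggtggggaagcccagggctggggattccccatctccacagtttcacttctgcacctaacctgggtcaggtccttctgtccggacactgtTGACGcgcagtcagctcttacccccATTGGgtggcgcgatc
H2.D1: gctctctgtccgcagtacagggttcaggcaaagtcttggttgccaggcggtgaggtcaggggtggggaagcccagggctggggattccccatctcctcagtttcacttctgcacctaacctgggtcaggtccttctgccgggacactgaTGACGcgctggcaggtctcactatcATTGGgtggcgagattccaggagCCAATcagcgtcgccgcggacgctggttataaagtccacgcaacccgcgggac
H2.Aa: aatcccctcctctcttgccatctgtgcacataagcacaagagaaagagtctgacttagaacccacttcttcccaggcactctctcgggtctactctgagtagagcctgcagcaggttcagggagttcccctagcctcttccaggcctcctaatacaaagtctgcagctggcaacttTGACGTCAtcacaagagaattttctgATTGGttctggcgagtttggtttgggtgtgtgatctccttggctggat
All 4 printed promoters hold TGACG followed downstream by ATTGG. Among matched members not printed, Psmb8 and H2.Eb1 hold no TGACG, and in Tap1 the CCAAT lies upstream of it. Psmb9 holds TGACG on the other strand, followed by ATTGG. H2.Q6 holds no TGACG, while H2.Q7 holds it followed by ATTGG. Over all 32851 RefSeq promoters of the same length, 17.8% hold TGACG and 33.8% hold CCAAT on either strand. In H2.Aa the capitals TGACGTCA are 2 overlapping matches of TGACG, one on each strand. The response element core was found in the B2m promoter alone among the 8 matched members, 139 to 130 bases before the start, and in 2.98% of all promoters. TTCNNNGAA was found in the Psmb8 promoter alone among them, and in 7.02% of all promoters. A match is a run of letters and not a measured binding site. Only exact matches were searched, so a promoter without a match, such as those of H2.K1 and H2.D1, can still hold a variant of an element.

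The heavy chain promoters also share a stretch. The longest run common to those of H2.K1, H2.D1, H2.Q6 and H2.Q7 has 21 bases and is in 6 of 32851 promoters, all of them entries for H2.D1, H2.K1, H2.Q4, H2.Q6 and H2.Q7:
shared run: ACAGGGTTCAGGCAAAGTCTT
It starts 174 bases before the start of H2.K1, 234 before that of H2.D1, 236 before that of H2.Q6 and 196 before that of H2.Q7.

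The first comparison asked how the class I genes differed in the adult apex between the libraries labelled CTR and mCKO. H2.K1 was listed at 492 and 406 in the controls and 272 and 358 in the knockouts. Both knockout samples were below both controls. The means were 449 ± 60.8 (SD, n = 2) and 315 ± 60.8 (SD, n = 2), which is -0.52 on the log2 scale (SE 0.14, adjusted p = 0.0134, limma). Lower calls make up 0.951% of all adult genes tested. The call was lost in 7 of 14 tested settings, over which the adjusted p (limma) ran from 5.53e-07 to 0.792, and it was 0.154 without the replicate block. The change within number 1 was -0.85 on the log2 scale and within number 2 it was -0.18.

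B2m, the partner of every class I heavy chain, was listed at 793 and 656 in the controls and 508 and 645 in the knockouts. The groups did not overlap, but the gap between the nearest samples was small beside the spread within each group. The means were 724.5 ± 96.9 (SD, n = 2) and 576.5 ± 96.9 (SD, n = 2), which is -0.33 on the log2 scale (SE 0.14, adjusted p = 0.215, limma) and did not pass the test. The difference sat in number 1 (-0.64) and was close to 0 in number 2 (-0.02). H2.D1, the other classical heavy chain, was listed at 432 and 386 in the controls and 303 and 348 in the knockouts. Its groups did not overlap either, and its log2 change of -0.33 (SE 0.14, adjusted p = 0.240, limma) missed the threshold. Both numbers pointed down for H2.D1, by -0.51 and -0.15.

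The authors' deposited table gives log2 fold changes of -0.57 for H2.K1 (p = 0.00996), -0.39 for B2m (p = 0.0454) and -0.39 for H2.D1 (p = 0.0434), all unadjusted.

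Across the 10 adult members, 9 had a negative log2 change, against 28.6% of all tested genes, and the median was -0.31 against 0.08 for all. In 6 of the 10 (B2m, H2.K1, H2.D1, Psmb8, Cd74 and H2.Ab1) both knockout values lay below both control values, against 12.8% of all tested genes, and none lay wholly above. At an unadjusted p under 0.05, 5 members were lower, against 3.3% of all tested genes, and none was higher, against 9.04%. The members are genes of one pathway in the same 4 samples, and several share reads, so these counts are a description.

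**Figure D1:**
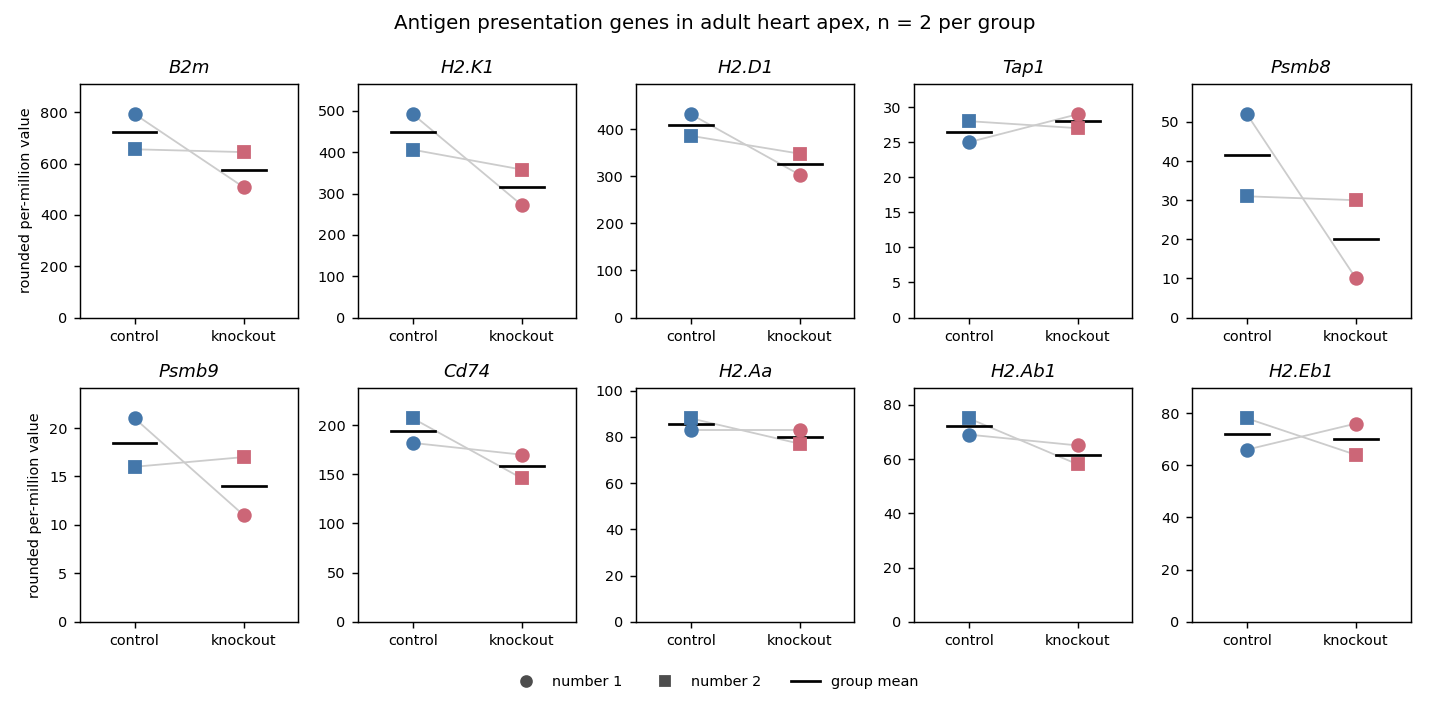
Rounded per-million values of the 10 members in the adult apex, 1 panel a gene with its own axis from 0. Circles are replicate number 1, squares number 2, grey lines join the same number and black bars are group means (n = 2). H2.K1 falls from 449 to 315 on average, while the Tap1, Psmb9 and H2.Eb1 values go in opposite directions in the 2 numbers.

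Other class I genes were split by family. Of 14 tested heavy chain and class I-like genes beside the members, 2 fell and none rose, against 0.951% and 2.34% of all tested genes. Their median log2 change was 0.00. H2.Q6, a class I gene of the Q region, was listed at 65 and 54 in the controls and 36 and 47 in the knockouts (log2 change -0.52, SE 0.15, adjusted p = 0.0267, limma). H2.Q7, its neighbour, was listed at 49 and 37 in the controls and 23 and 34 in the knockouts (log2 change -0.59, SE 0.16, adjusted p = 0.0126, limma). In both genes each knockout value was below each control value. Like H2.K1, each lost its call in 7 of 14 tested settings, with adjusted p up to 0.768 for H2.Q6 and 0.891 for H2.Q7 (limma). H2.Q4 was listed at 59 and 54 against 41 and 47 (log2 change -0.36, adjusted p = 0.229, limma) and did not pass.

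The T region genes gave no call. H2.T22 was listed at 39 and 36 in the controls and 38 and 42 in the knockouts, and H2.T23, the mouse Qa-1 heavy chain, at 61 and 59 against 57 and 60. Both overlapped between groups. H2.T24 was listed at 10 and 14 against 19 and 16 (log2 change 0.52, adjusted p = 0.181, limma), with the knockouts above the controls. Grouped after the values were seen, the 7 tested class Ia and Q genes had 6 negative changes, against 28.6% of all tested genes. They had 3 lower calls, against 0.951% of all tested genes, and a median of -0.36. Their median was -0.70 within number 1 and -0.15 within number 2. The set was formed to hold the called genes, and H2.Q6 shares 13.9% of its 50-base words with H2.Q7, so their calls may not be separate.

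Peptide supply to class I was described next. Tap1 was listed at 25 and 28 in the controls and 29 and 27 in the knockouts, overlapping groups that differed by 0.08 on the log2 scale (SE 0.17, adjusted p = 0.943, limma). Its partner chain Tap2 was listed at 26 and 26 against 26 and 24. Tapbp, which encodes tapasin and tethers class I to the transporter, was listed at 82 and 80 against 74 and 76. Calr, which encodes the chaperone calreticulin, was listed at 349 and 363 against 353 and 340. None of the 9 tested loading genes passed the limma test in either direction. At an unadjusted p under 0.05, 1 was higher, against 9.04% of all tested genes. Their median was -0.06.

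Psmb8, the catalytic subunit that replaces Psmb5, was listed at 52 and 31 in the controls and 10 and 30 in the knockouts. One knockout sample, number 1, was far below the other 3. The means were 41.5 ± 14.8 (SD, n = 2) and 20 ± 14.1 (SD, n = 2), and the log2 change of -1.16 had an SE of 1.11 (adjusted p = 0.906, limma). Within number 1 it was -2.27 and within number 2 it was -0.05. It passed in 2 of 14 tested settings, with neither the trend nor the robust option (adjusted p = 0.00805, limma) and without mCKO 2 in a fit with no block (adjusted p = 1.51e-18, limma). Psmb9, which replaces Psmb6, was listed at 21 and 16 in the controls and 11 and 17 in the knockouts (log2 change -0.40, SE 0.20, adjusted p = 0.380, limma). Its groups overlapped, with -0.87 within number 1 and 0.08 within number 2.

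The rest of the immunoproteasome showed the same split by number. Psmb10, which replaces Psmb7, was listed at 152 and 91 in the controls and 36 and 96 in the knockouts. Psme1 and Psme2, the subunits of the PA28 activator that opens the proteasome core, were listed at 175 and 134 against 96 and 137, and at 62 and 44 against 30 and 49. All 3 were lower in the knockout within number 1 and higher within number 2. Over the 5 immunoproteasome genes, all 5 were lower within number 1, with a median of -1.02. Within number 2, 4 of the 5 were higher, with a median of 0.08. None of the 5 passed the adjusted test (limma). At an unadjusted p under 0.05, 3 of them (Psmb9, Psme1 and Psme2) were lower, against 3.3% of all tested genes. In these 3 the groups overlapped, and the error comes mainly from the spread pooled over genes. The standard subunits were listed with Psmb5 at 41 and 44 against 52 and 49, Psmb6 at 112 and 119 against 118 and 112, and Psmb7 at 86 and 90 against 92 and 88. None of these 3 passed the test. Psme2 shares 54.9% of its 50-base words with Psme2b, so its reads are uncertain.

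**Figure D2:**
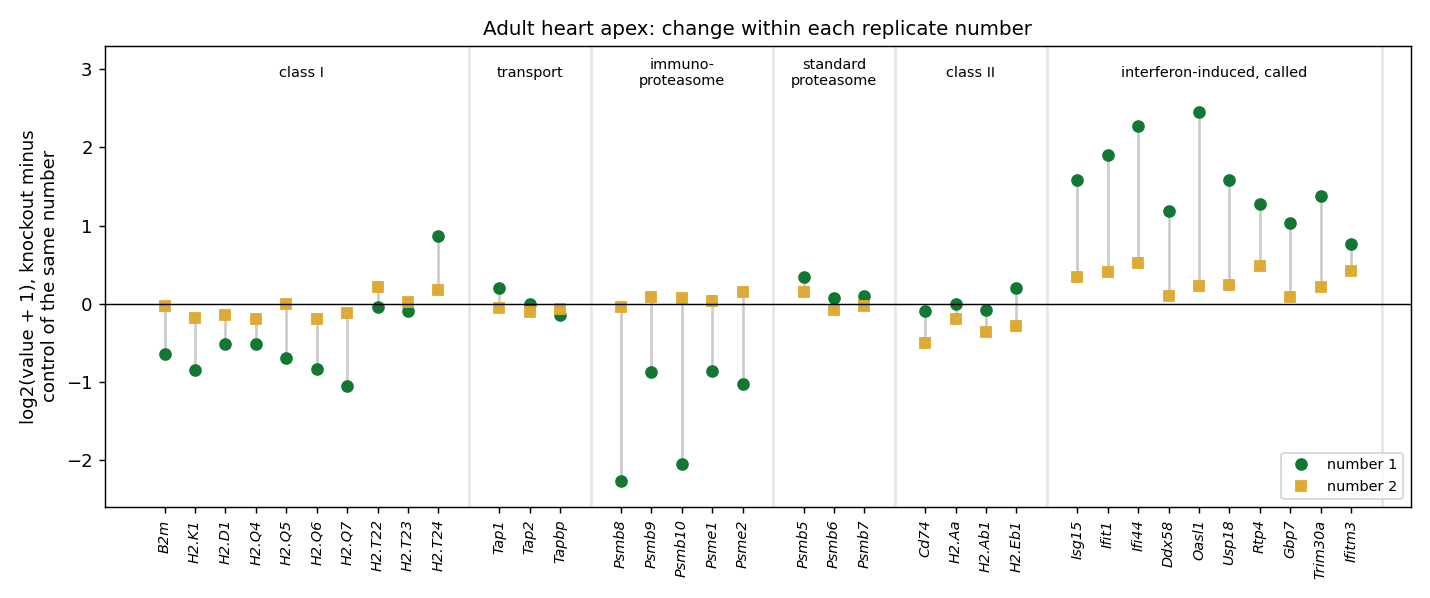
Log2(value + 1) change, knockout minus the control of the same number, for class I, transport, immunoproteasome, standard proteasome, class II and the 10 called interferon-induced genes in the adult apex. Green circles are number 1, yellow squares number 2, and a grey line joins the 2 values of a gene. The 5 immunoproteasome genes lie well below 0 within number 1 and near 0 within number 2 (Psmb8 at -2.27 and -0.05). The 10 interferon-induced genes were drawn because they were called higher, so their place above 0 follows from that choice. Over all 35 on that list, 31 were higher and 3 lower within number 1, and 24 were higher and 7 lower within number 2.

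The class II members were compared with the cells that carry them. Cd74 was listed at 182 and 207 in the controls and 170 and 146 in the knockouts. Its groups did not overlap, and its means were 194.5 ± 17.7 (SD, n = 2) and 158 ± 17.0 (SD, n = 2). The log2 change was -0.30 (SE 0.15, adjusted p = 0.352, limma). The difference was larger within number 2 (-0.50) than within number 1 (-0.10).

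H2.Ab1 was listed at 69 and 75 in the controls and 65 and 58 in the knockouts, again without overlap (log2 change -0.23, SE 0.15, adjusted p = 0.617, limma). H2.Aa was listed at 83 and 88 against 83 and 77, and H2.Eb1 at 66 and 78 against 76 and 64. Those last groups overlapped or touched. All 4 class II members were lower within number 2, with a median of -0.32, and the median within number 1 was -0.04. No class II member passed the limma test. Cd74 was the 1 of 4 lower at an unadjusted p under 0.05, against 3.3% of all tested genes. Of 12 other tested class II genes, 1 rose and none fell: Ctss, the protease that trims the invariant chain, was listed at 27 and 30 in the controls and 43 and 39 in the knockouts (log2 change 0.51, SE 0.16, adjusted p = 0.0475, limma). Higher calls make up 2.34% of all adult genes tested. Ctss lost its call in 7 of 14 tested settings.

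Markers of the cells that make class II were read beside these values. Of 24 tested macrophage and monocyte markers, 21 changes were positive and 2 negative, against 8590 positive among all 14833 tested genes. One marker rose, and higher calls make up 2.34% of all tested genes. The median was 0.31, against 0.08 for all. Their summed level was 845 to 861 in the controls and 999 to 1016 in the knockouts. The called one was Fcgr1, an Fc receptor, at only 2 and 5 against 9 and 7 (log2 change 1.08, adjusted p = 0.0255, limma). Without the replicate block Fcgr1 lost its call (adjusted p = 0.157, limma). Lyz2 was listed at 211 and 203 against 221 and 229 (log2 change 0.12, adjusted p = 0.877, limma). Dendritic markers summed to 43 to 48 against 49 to 53, with 8 of 11 listed genes at 5 or less in every sample. B cell markers summed to 1 to 3 against 5 to 6, with 2 of 8 listed. T and natural killer markers summed to 7 to 10 against 9 to 15, with all 10 listed genes at 5 or less. Fibroblast markers summed to 1450 to 1791 against 2576 to 2917, and endothelial markers to 1127 to 1163 against 1041 to 1077. None of the 10 fibroblast and 12 endothelial markers tested passed the limma test. The fibroblast markers were uneven, with Col3a1 at 39 and 208 against 543 and 373, and Pdgfra at 44 and 51 against 50 and 44. The part of these cells in the results was not tested, and in bulk tissue fewer cells of a type and less RNA per cell cannot be told apart. All 14 heart muscle markers were listed, and their summed level was 68068 to 69546 against 65345 to 66826. One of them, Myh7, rose, at 270 and 468 against 1090 and 892 (log2 change 1.47, adjusted p = 3.28e-16, limma), and none fell.

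Regulators of these genes were read from a list of 25 tested genes, of which none rose by the limma test. At an unadjusted p under 0.05, 5 were higher, against 9.04% of all tested genes. Over the list 20 changes were positive and 5 negative, against 8590 positive among all 14833 tested genes. Ifngr2 was listed at 232 and 246 against 235 and 221, and Jak1 at 147 and 138 against 130 and 139. Nlrc5, the main activator of class I genes, was listed at 9 and 16 against 20 and 15. Ciita, the master activator of class II genes, was listed at 2 and 2 against 4 and 2. Irf9, the DNA-binding part of the type I interferon complex, was listed at 31 and 41 against 55 and 44 (log2 change 0.45, adjusted p = 0.0845, limma).

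Of 35 interferon-induced genes outside antigen presentation, 10 rose and none fell in the adult apex, against 2.34% and 0.951% of all tested genes. Positive changes numbered 29, against 8590 of all 14833 tested genes. The median log2 change of the list was 0.48. In 23 of the 35 both knockouts lay above both controls, against 29.3% of all tested genes. In 2 they lay below, against 12.8%. Isg15, a ubiquitin-like modifier, was listed at 8 and 14 in the controls and 26 and 18 in the knockouts (log2 change 0.96, SE 0.20, adjusted p = 0.000229, limma). Ifi44 was listed at 5 and 13 against 28 and 19 (log2 change 1.39, SE 0.24, adjusted p = 5.21e-05, limma). Ifitm3, a membrane protein that limits virus entry, was listed at 126 and 146 against 214 and 195 (log2 change 0.59, SE 0.15, adjusted p = 0.00380, limma). The median of the list was 0.67 within number 1 and 0.21 within number 2. Number 1 was also where the class Ia, Q and immunoproteasome genes had their lowest medians. Genes of other lists changed more within number 1 too, such as Col3a1 (3.77 and 0.84) and Myh7 (2.01 and 0.93), while Cd74 changed more within number 2. A link between the lists was not tested. Each of the 10 kept its call in 7 to 10 of the 13 or 14 settings in which it was tested. Without the replicate block Ifitm3 alone of the 10 kept it (adjusted p = 0.0418, limma; 0.174 for Isg15 and 0.221 for Ifi44). With the larger of own and pooled variance none of the 10 kept it (adjusted p from 0.0672 for Ifitm3 to 0.917 for Ddx58, limma).

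The E15.5 comparison covered only 3 members, because H2.K1, Psmb8, Psmb9 and the class II members are not in that table. B2m was listed at 111, 122 and 90 in the controls and 108, 97 and 129 in the knockouts. The groups overlapped, with means of 107.7 ± 16.3 and 111.3 ± 16.3 (SD, n = 3), which differ by 0.05 on the log2 scale (SE 0.17, adjusted p = 0.933, limma). H2.D1 was listed at 45, 55 and 55 against 56, 46 and 46, also overlapping (log2 change -0.07, SE 0.17, adjusted p = 0.893, limma). Tap1 was listed at 2, 4 and 2 against 7, 5 and 6. Each knockout value lay above each control value, but the levels are a few units above 0, and the log2 change of 0.97 (SE 0.32, adjusted p = 0.151, limma) did not pass the test. Genes with groups that do not overlap make up 19.3% (higher in the knockout) and 8.75% (lower) of all E15.5 genes tested, and none of the 3 members was in the second kind. At an unadjusted p under 0.05, Tap1 was the 1 member of 3 that was higher, against 10.3% of all tested genes, and none was lower, against 3.62%. One member, H2.D1, had a negative change, against 33.1% of all tested genes. Over all settings tried, Tap1 was not called, with adjusted p from 0.0524 to 0.601 (limma).

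**Figure D3:**
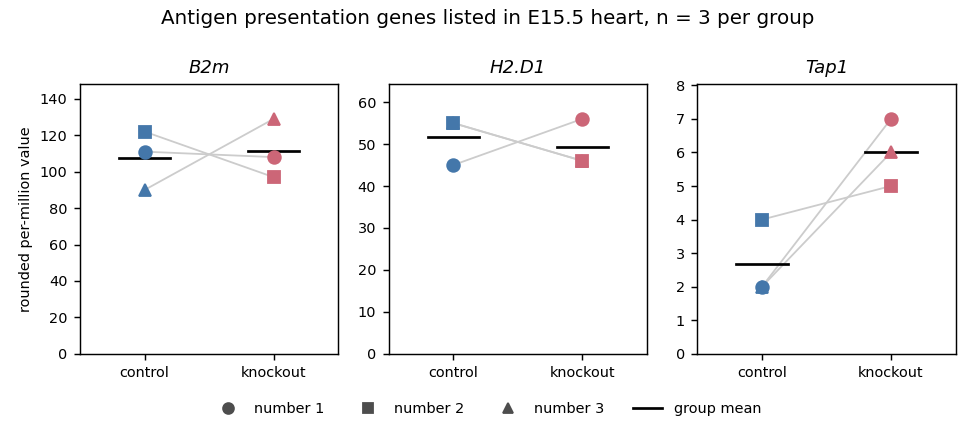
Rounded per-million values of the 3 members listed in the E15.5 heart, with circles, squares and triangles for replicate numbers 1, 2 and 3 and grey lines joining the same number. Black bars are group means (n = 3). For H2.D1, numbers 2 and 3 have equal values and lie on each other. B2m and H2.D1 overlap between groups, and Tap1 lies at 2 to 4 against 5 to 7.

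The wider lists at E15.5 held few calls. None of 13 other class I genes passed the limma test, and 5 were higher at an unadjusted p under 0.05, against 10.3% of all tested genes. Of their changes 10 were positive, against 8226 of all 13609 tested genes (list median 0.44, against 0.11 for all tested genes). Mr1, a class I-like gene that presents vitamin metabolites, was listed at 12, 14 and 11 against 20, 18 and 21 (log2 change 0.64, adjusted p = 0.169, limma). Fcgrt, the neonatal Fc receptor heavy chain, was listed at 40, 36 and 34 against 46, 51 and 52 (log2 change 0.43, adjusted p = 0.239, limma). Among the 4 other class II genes listed, all had a positive change and none passed: Ctsh, a lysosomal protease, was nearest, at 27, 28 and 30 against 45, 46 and 43 (log2 change 0.64, adjusted p = 0.0702, limma). Of 7 proteasome genes, 6 had a negative change, against 33.1% of all tested genes, and none passed. At an unadjusted p under 0.05 (limma), 2 were lower, against 3.62% of all tested genes.

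Of 30 interferon-induced genes at E15.5, 2 rose and none fell, with a median of 0.17. Both are guanylate-binding proteins of the interferon response. Gbp6 was listed at 4, 3 and 7 against 13, 13 and 10 (log2 change 1.25, adjusted p = 0.0405, limma), and Gbp8 at 1, 1 and 4 against 10, 10 and 7 (log2 change 1.87, adjusted p = 0.0245, limma). Higher calls make up 0.529% of all E15.5 genes tested. Gbp6 lost its call in 10 of 15 tested settings and Gbp8 in 6 of 15. Macrophage markers summed to 166 to 202 in the controls and 194 to 228 in the knockouts, and endothelial markers to 1383 to 1504 against 1530 to 1650. Fibroblast markers summed to 4120 to 5038 in the controls and 5049 to 5963 in the knockouts, and 1 of 7 tested, Pdgfra, rose. Heart muscle markers summed to 21216 to 24975 in the controls and 16328 to 20085 in the knockouts, with a median log2 change of -0.41. Among the 8 tested, 1, Tnnc1, fell (adjusted p = 0.0449, limma), and lower calls make up 0.103% of all tested genes. Neither the fibroblast nor the heart muscle ranges overlapped, and the part of these cells in the values above was not tested. Only 8 of 14 heart muscle markers are in the E15.5 table, and Myh6, Myh7, Ryr2, Pln, Actn2 and Nkx2.5 are among those not listed.

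**Figure D4:**
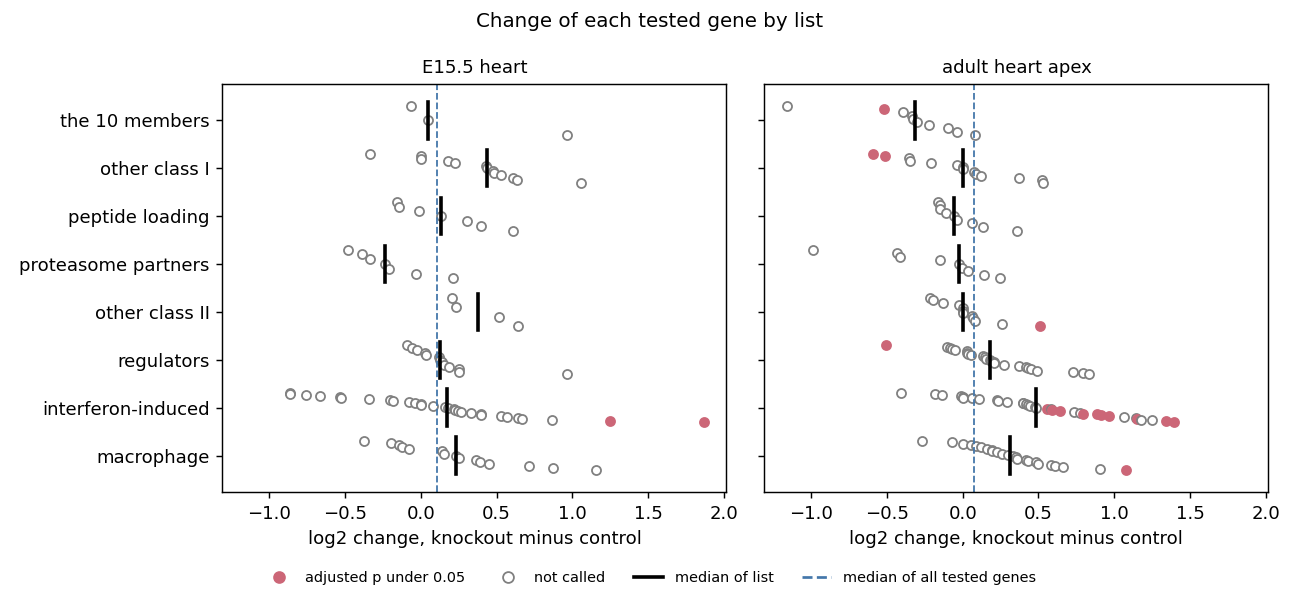
Log2 change, knockout minus control, of each tested gene in 8 lists, E15.5 heart on the left and adult apex on the right. Filled points passed the limma test at an adjusted p under 0.05, black bars are list medians and the dashed line is the median of all tested genes. The adult members lie mostly left of it (median -0.31) and the adult interferon-induced genes mostly right (median 0.48).

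The change in the adult was set against that at E15.5 for the 3 members in both tables. The adult minus E15.5 difference in log2 change was -0.38 for B2m (SE 0.29, adjusted p = 0.750, limma), -0.26 for H2.D1 (SE 0.24, adjusted p = 0.789, limma) and -0.89 for Tap1 (SE 0.39, adjusted p = 0.596, limma). None of the 3 passed the test of the difference. Of 9768 genes tested in both tables, 0 passed (0% called), and 818 (8.37%) had an unadjusted p under 0.05.

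The levels of these members were far apart between the tables, which were scaled separately, so no test was made. B2m ranged from 90 to 129 at E15.5 and from 508 to 793 in the adult, a ratio of means of 5.94. H2.D1 ranged from 45 to 56 and from 303 to 432, a ratio of 7.27. Tap1 ranged from 2 to 7 and from 25 to 29, a ratio of 6.29. Over the 9768 genes in both tables the median ratio was 0.491. A ratio at least as high as that of B2m was found in 2.28% of those genes, and every adult value lay above every E15.5 value in 12.5% of them. Stage, tissue piece and table cannot be told apart here.

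By the correlation of log2(value + 1), centred within each table, over the 10 samples and 5639 genes, the genes most like B2m were Rplp2 (Pearson r 0.996), Ppip5k1 (0.969), Rrad (0.966), Pxmp4 (0.960) and Pkdcc (0.960). Same-numbered values mirror each other, so these 10 samples hold fewer independent points than their number. Cd74 is not in the E15.5 table and was not ranked this way.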

How the data were processed

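Total RNA of 10 heart samples was sequenced after column extraction with DNase, per the labels' protocols. HISAT2, HTSeq and mm10 are named in the submitters' processing notes, without versions. The deposited values are a score: per-million values that the authors rounded to whole numbers, and the sources used here do not give whether they were scaled by length, so levels were not compared between genes. The authors' deposited table also holds log2 fold changes and p-values, which were used only where named. Genes with a value of at least 1 in as many samples as a group holds were tested in R 4.3.3 with limma 3.58.1. The fit used log2(value + 1), which understates the change of low genes, and was made within each table. The replicate number was a block, the variance of rounding (0.0833 on the value scale) was added, and eBayes used its trend and robust options with Benjamini-Hochberg adjustment over all tested genes at 0.05. The block was kept because same-numbered values mirror each other in the files; the labels do not say that a number marks a shared litter, batch or day. The residual degrees of freedom are 2 at E15.5 and 1 in the adult. A pair of adult entries with a date in place of a symbol was left out. An interaction fit over all 10 samples compared the changes between stages. The procedure was also run on simulated data in which every gene had the same log2 spread before rounding. Genes with a wider spread, such as adult Psmb8, were not simulated, and no result here rests on that run. Other pseudocounts, filters, blocks, scalings, variance options and left-out samples were tried.

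The members and gene lists (class I, peptide loading, proteasome, class II, regulators, interferon-induced genes and markers of macrophages, dendritic cells, B cells, T and natural killer cells, endothelium, fibroblasts, heart muscle and epithelium) were chosen with earlier results of these data known. Named genes were drawn from the members, Larp7, list genes that passed the test and the 5 most like B2m. Up to 4 per list with the highest mean could be added. Not every list gene that passed the test is named. H2.T24, Nlrc5, Ciita, Irf9, Psmb5, Psmb7, Psme2, Tap2 and the missing heart muscle markers were named after their values were seen. Epithelial markers summed to 60 to 102 in the E15.5 controls and 62 to 227 in the knockouts, and to 4 to 6 against 11 in the adult. Of these, adult Krt18 was called higher, at 1 and 0 against 4 and 4 (adjusted p = 0.0135, limma), and higher calls make up 2.34% of all adult genes tested. The calls of Krt18, adult Myh7, and E15.5 Pdgfra and Tnnc1 were not followed over the other settings. One gene of the regulator list is not reported here. Positions are from GENCODE on GRCm38 and promoters from RefSeq. Figures were drawn with matplotlib 3.10.9 in Python 3.11.15.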

Additional observations from a re-analysis of the deposited data

How the results depend on the processing

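At E15.5 the counts called higher and lower, 72 and 14, became 39 and 7 with pseudocount 0.5, 188 and 33 with pseudocount 4, 480 and 121 with no filter, and 12 and 7 with median-of-ratios scaling. They were 39 and 7 with the larger of own and pooled variance, and 0 and 0 with a mean of at least 10 (1100 genes at an unadjusted p under 0.05, limma), with neither trend nor robust option (1166) and with the replicate block but no rounding variance (1422). Without the replicate block they were 430 and 174 with rounding variance and 701 and 339 without it. Leaving out 1 sample gave 171 to 419 higher and 39 to 85 lower. The adult counts, 347 and 141, became 1133 and 489 with neither block nor rounding variance, 833 and 297 with the replicate block alone, and 87 and 45 with the larger variance. Leaving out 1 adult sample leaves no residual degrees of freedom under the block, so that fit was made without it, an alternative chosen after seeing the data in which the lone sample is assumed to vary like the other group. It gave 604 higher and 225 lower without CTR 1, 957 and 296 without CTR 2, 379 and 222 without mCKO 1, and 607 and 297 without mCKO 2.

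The number of adult members called lower, 1, became 0 without the replicate block (with or without rounding variance), with the block and no rounding variance, and with the larger variance, and 1 to 5 with 1 sample left out. With neither trend nor robust option it was also 1, but the gene was Psmb8 (adjusted p = 0.00805, limma) and not H2.K1 (0.633). H2.K1 had an adjusted p of 0.0503 without CTR 1 and 0.127 without mCKO 1 (limma). Genes whose change differed between stages numbered 0 in the chosen fit, 1 with pseudocount 0.5, 1 with no filter, 383 without the replicate block, 471 with neither block nor rounding variance, and 0 to 34 with 1 sample left out. None of B2m, H2.D1 and Tap1 was called in that test under any setting tried.

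Some changes that had not passed the test reversed in sign. E15.5 B2m was -0.014 with median-of-ratios scaling and -0.18 to 0.24 with 1 sample left out, and E15.5 H2.D1 was -0.25 to 0.028. Adult Tap1 was -0.00086 to 0.16 and adult H2.Eb1 -0.16 to 0.082 (0.078 without CTR 2) with 1 sample left out and no block. Psmb9 was 0.082 with the number 1 pair left out. The cause was not tested. Depth is unknown, and rounding to whole units limits low genes such as E15.5 Tap1 most.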
